A study of Mus musculus with 6 samples.

Results

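The pentose phosphate pathway enzymes are described here as 8 genes taken by symbol from the 55536 genes counted in HCA-1 tumors. The oxidative branch holds G6pdx, H6pd, Pgls and Pgd, and the non-oxidative branch holds Rpe, Rpia, Tkt and Taldo1. All 8 passed the filter on low counts, as did 15374 genes in total. HCA-1 is a mouse hepatocellular carcinoma (HCC) line, which was implanted under the capsule of the liver of male C3H mice (C3H/HeNCrNarl in the study's methods) aged 6 to 8 weeks. The 3 control tumors (controls 5, 6 and 7) were untreated. The 3 treated tumors (1, 2 and 5) came from mice given intravenous GOx-DOX-LGP, a lipid, gelatin and protamine nanogel loaded with glucose oxidase (GOx), which oxidizes glucose and releases hydrogen peroxide, and doxorubicin (DOX). No group received empty nanogel or a single agent, so the contributions of carrier, enzyme and drug cannot be told apart. The labels give injections on days 18, 19 and 20 and RNA collection on day 17 after 3 h of circulation, which contradict each other. For a PCR experiment with injections on the same days, the study's methods place collection on the day after the last injection.

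The pentose phosphate pathway draws glucose 6-phosphate away from glycolysis. Its oxidative branch yields NADPH, the reductant used by glutathione and thioredoxin reductases against peroxide and by lipid synthesis, and its non-oxidative branch interconverts sugar phosphates and provides ribose 5-phosphate for nucleotides. In the cytosol, G6pdx encodes glucose 6-phosphate dehydrogenase, the committed step, Pgls encodes 6-phosphogluconolactonase and Pgd encodes 6-phosphogluconate dehydrogenase. H6pd encodes a separate enzyme in the lumen of the endoplasmic reticulum (ER) that performs the first steps there. In liver, its NADPH is known to serve 11-beta-hydroxysteroid dehydrogenase, the product of Hsd11b1.

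The start-site windows of the 3 genes with the largest differences between the groups, Pgd, G6pdx and H6pd, are printed because 2 of these genes measured higher and 1 lower in treated tumors. Each window runs from 250 bases before to 50 bases after a RefSeq start in GRCm38.p6, read 5′ to 3′ on the minus strand of the chromosome. Capitals mark the GC box GGGCGG or the core of the antioxidant response element TGACNNNGC, on either strand.
G6pdx, chrX:74428831-74429130: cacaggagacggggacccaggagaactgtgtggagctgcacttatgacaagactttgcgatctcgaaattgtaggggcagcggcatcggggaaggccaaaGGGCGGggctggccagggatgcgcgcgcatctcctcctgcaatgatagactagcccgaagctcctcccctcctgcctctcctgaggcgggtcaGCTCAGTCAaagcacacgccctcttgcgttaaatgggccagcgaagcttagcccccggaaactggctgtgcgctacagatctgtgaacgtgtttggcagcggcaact
Pgd, chr4:149166656-149166955: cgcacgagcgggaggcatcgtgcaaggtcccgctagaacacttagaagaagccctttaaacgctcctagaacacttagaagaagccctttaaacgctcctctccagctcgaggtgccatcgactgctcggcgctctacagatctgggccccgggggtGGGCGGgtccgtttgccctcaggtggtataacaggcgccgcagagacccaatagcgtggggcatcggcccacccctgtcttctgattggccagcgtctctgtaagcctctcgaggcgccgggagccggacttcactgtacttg
H6pd, chr4:150003187-150003486: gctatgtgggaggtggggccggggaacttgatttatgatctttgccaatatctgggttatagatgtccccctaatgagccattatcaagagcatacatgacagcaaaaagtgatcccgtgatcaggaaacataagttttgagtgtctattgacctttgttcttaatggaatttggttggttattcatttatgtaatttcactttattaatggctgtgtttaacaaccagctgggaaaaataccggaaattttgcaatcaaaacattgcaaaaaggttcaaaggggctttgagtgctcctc
The G6pdx window held 1 antioxidant response element core, on the reverse strand with its first printed base 57 bases before the start (position -57), and 1 GC box. The printed Pgd window held 1 GC box, whereas the window of another RefSeq start of Pgd, chr4:149166033-149166332, held the core as TGACATTGC, 3 bases after the start. The H6pd window held none of the motifs searched, and its GC content was 39.3%, against 60% for G6pdx. This RefSeq start of H6pd lies 5787 bases inside the annotated span of the gene, whereas those printed for G6pdx and Pgd lie 314 and 66 bases inside theirs, so the windows are not at like places in the genes. The other start of Pgd, whose window held the core, lies 689 bases inside the span. Whether it is used as a start in these tumors was not tested. Over 9 windows of the 8 genes, 2 held the antioxidant response element core, those of G6pdx and of the other Pgd start. A GC box was held by 7 and the E-box CACGTG by 0. Of 32851 RefSeq windows of the same length, 12.4% held the core, 35.7% a GC box and 7.15% the E-box. These matches are letters in a window and were not tested as binding sites.

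The 6 libraries held 15529940 to 18401178 counts, of which the 8 enzymes took 9581 to 11951. Levels are given as CPM (counts scaled to library size with TMM factors), in which 3 counts correspond to between 0.132 and 0.323 CPM. Control 5 stood apart from the other controls: over all genes kept, its log2 CPM had a Pearson r of 0.73 and 0.66 with controls 6 and 7 and between 0.966 and 0.975 with the treated tumors. The summed level of 9 hepatocyte markers, none of them at 0 in any library, was 644 CPM in control 5, 120249 and 200259 CPM in controls 6 and 7, and 1341 to 3409 CPM in treated tumors. Alb alone measured 353, 73804 and 128244 CPM in the controls and 733 to 1893 CPM in the treated tumors, and Ttr and Apoa1 had the same order of libraries. The proliferation list summed to 1069, 294 and 43.2 CPM in controls 5, 6 and 7 against 742 to 955 CPM in treated tumors. Of the HCC and epithelial markers, Krt8 and Krt18 were well detected (364 and 460 CPM, control means), whereas Afp measured 9.47 CPM and Gpc3 1.85 CPM. In bulk tumors, fewer cells of a type and less RNA per cell cannot be told apart.

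To examine whether the pathway differed after GOx-DOX-LGP, the tumors were compared by edgeR's quasi-likelihood test across all genes kept. Pgd was higher in every treated tumor than in every control, H6pd was lower in treated tumors than in controls 6 and 7 but not control 5, and G6pdx averaged higher with overlap. None of the 8 enzymes passed an adjusted p of 0.05, beside 0% of all genes, and the lowest adjusted p of any gene was 0.247. At an unadjusted p under 0.05, 1 of 8 was higher (Pgd), beside 2.87% of all genes, and 1 of 8 was lower (H6pd), beside 14.6%. DESeq2 gave 0 of 8 higher with an adjusted p under 0.05, beside 0.684% of all genes, and 1 of 8 lower (H6pd), beside 9.85%. The groups did not overlap for 2 of 8 enzymes that were higher (Pgd and Rpia), beside 8.87% of genes, and for 0 of 8 that were lower, beside 8.31%. A two-sided exact permutation test of 3 tumors against 3 cannot give a p below 0.1.

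**Figure D1:**
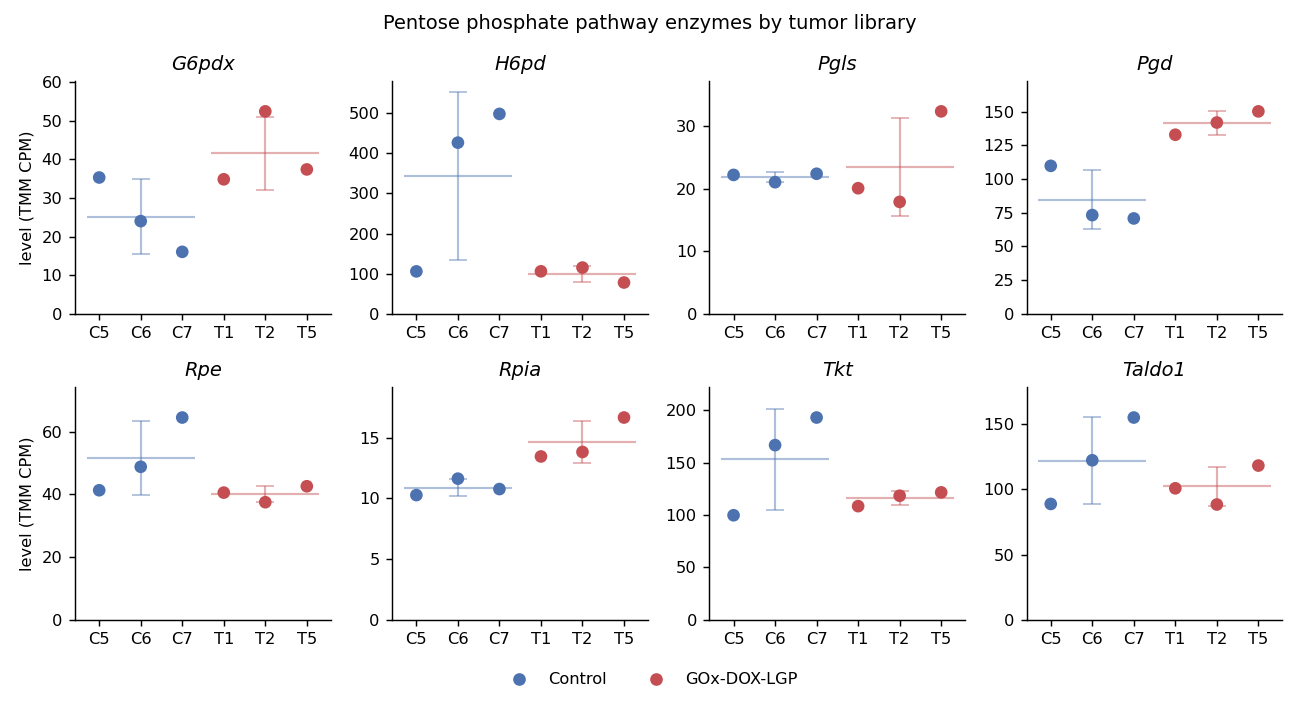
Level of each enzyme (TMM CPM, linear axis from 0) in controls 5, 6 and 7 (C5 to C7, blue) and GOx-DOX-LGP tumors 1, 2 and 5 (T1, T2 and T5, red), with horizontal lines at group means and bars of 1 SD. Control 5 lies near the treated tumors for H6pd, Rpe and Tkt, while Pgd and Rpia are higher in all 3 treated tumors than in all 3 controls.

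Among the cytosolic oxidative enzymes, Pgd (ENSMUSG00000028961, chromosome 4, 149149991 to 149166771, minus strand) measured 109.8, 73.2 and 70.7 CPM in controls 5, 6 and 7 against 133, 142 and 150.2 CPM in treated tumors 1, 2 and 5. All treated tumors were above all controls, and control 5 was the nearest control (two-sided exact permutation test, p = 0.1). The means were 84.6 ± 21.9 CPM (SD, n = 3) and 142 ± 8.68 CPM (SD, n = 3). The log2 fold change was 0.74 (SE 0.25, 95% interval 0.13 to 1.36), with an adjusted p of 0.247 by edgeR and 0.0824 by DESeq2.

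G6pdx (ENSMUSG00000031400, chromosome X, 74409483 to 74429194, minus strand) measured 35.3, 24.0 and 16.0 CPM in controls 5, 6 and 7 against 34.8, 52.5 and 37.4 CPM in treated tumors 1, 2 and 5. Control 5 was above treated tumor 1, so that the ranges overlapped (p = 0.2, two-sided exact permutation test), and treated tumor 2 was the highest. The log2 fold change was 0.72 (SE 0.34, 95% interval -0.11 to 1.56; adjusted p = 0.331 by edgeR). The 8 macrophage markers, none at 0 in any library, summed to 904, 861 and 519 CPM in controls against 873, 2015 and 1272 CPM in treated tumors, with tumor 2 highest as for G6pdx, and their part in the level of G6pdx was not tested. The Ikbkg gene on the opposite strand overlaps 13.6% of the exonic bases of G6pdx, and 16.9% of the 50-base stretches of G6pdx occur in other genes, so its counts are uncertain where strand was not used in counting.

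Pgls (ENSMUSG00000031807, chromosome 8, 71592176 to 71601092, plus strand), between G6pdx and Pgd in the pathway, measured 22.2, 21.03 and 22.4 CPM in controls against 20.1, 17.9 and 32.4 CPM in treated tumors. The controls were close together, and treated tumors lay on both sides of them. Its log2 fold change was 0.10 (SE 0.28, 95% interval -0.57 to 0.77), which does not exclude a difference of the size seen for Pgd. Fam129c, on the same strand, overlaps 20.6% of the exonic bases of Pgls and shares 18.9% of its 50-base stretches. Fam129c had only 13 to 112 counts, but the counts of Pgls are also uncertain in the shared part.

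H6pd (ENSMUSG00000028980, chromosome 4, 149979475 to 150009023, minus strand) showed the widest spread, with 105.5, 427 and 498 CPM in controls 5, 6 and 7 against 105.7, 115 and 77.7 CPM in treated tumors 1, 2 and 5. Control 5 fell inside the range of the treated tumors, and controls 6 and 7, the libraries with high hepatocyte markers, were above all others (two-sided exact permutation test, p = 0.3). The means were 344 ± 209 CPM (SD, n = 3) and 99.5 ± 19.4 CPM (SD, n = 3). The log2 fold change was -1.79 (SE 0.59, 95% interval -3.23 to -0.35), with an adjusted p of 0.247 by edgeR and 0.0494 by DESeq2. None of its 50-base stretches occur in another annotated gene.

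The functional partners of H6pd in the ER were likewise highest in controls 6 and 7. Hsd11b1, which regenerates active glucocorticoid with NADPH from the ER lumen, measured 5.27, 699.97 and 1164 CPM in controls 5, 6 and 7 against 11.7 to 25.6 CPM in treated tumors. Slc37a4, the transporter that brings glucose 6-phosphate into the ER, measured 11.7, 92.4 and 165 CPM in controls against 10.7 to 12.8 CPM in treated tumors. G6pc, the liver glucose 6-phosphatase that uses the same substrate, measured 0.307, 174 and 426 CPM in controls against 1.22 to 6.72 CPM in treated tumors. For each of these 3 genes, control 5 was with the treated tumors and far below controls 6 and 7. Their log2 fold changes were -5.13 (Hsd11b1, SE 1.66), -2.89 (Slc37a4, SE 0.87) and -5.57 (G6pc, SE 2.06), and their adjusted p was between 0.247 and 0.257 by edgeR. Without controls 6 and 7, all 4 genes of this list had a positive log2 fold change (median 0.95). G6pc3, the broadly expressed phosphatase, had a log2 fold change of 0.50 (SE 0.28).

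**Figure D2:**
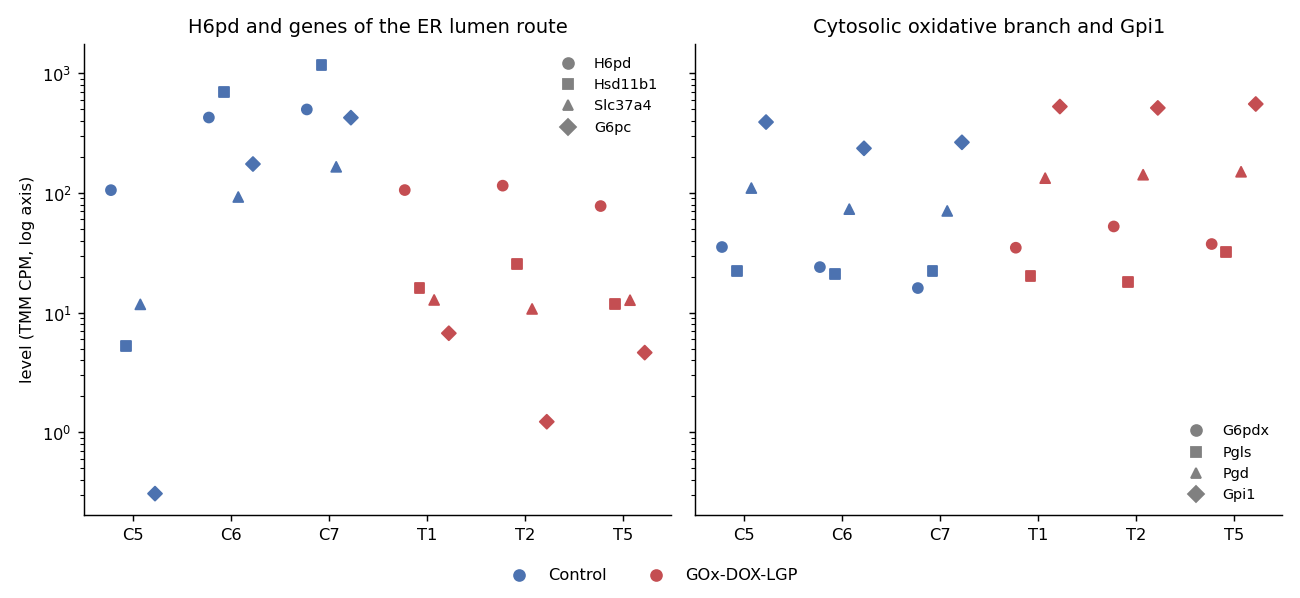
Level (TMM CPM, log axis) of H6pd and 3 genes of the ER route (left) and of the cytosolic oxidative enzymes with Gpi1 (right) in controls 5, 6 and 7 (blue) and GOx-DOX-LGP tumors 1, 2 and 5 (red); marker shapes stand for genes. On the left, C6 and C7 are separated from the other 4 libraries for all 4 genes, while on the right the levels of each gene differ less between libraries.

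In the non-oxidative branch, Rpia and Rpe act on the same substrate, ribulose 5-phosphate. Rpia (ENSMUSG00000053604, chromosome 6, 70765720 to 70792232, minus strand), the isomerase that forms ribose 5-phosphate, measured 10.3, 11.6 and 10.8 CPM in controls against 13.4, 13.8 and 16.6 CPM in treated tumors. The groups did not overlap, and control 5 lay with the other controls (two-sided exact permutation test, p = 0.1). The log2 fold change was 0.43 (SE 0.22, 95% interval -0.10 to 0.95), with an adjusted p of 0.347 by edgeR. Rpe (ENSMUSG00000026005, chromosome 1, 66700831 to 66719805, plus strand), the epimerase that forms xylulose 5-phosphate, measured 41.3, 48.8 and 64.5 CPM in controls against 40.5, 37.5 and 42.6 CPM in treated tumors. Control 5 was below treated tumor 5, and the log2 fold change was -0.36 (SE 0.23, 95% interval -0.91 to 0.19). Kansl1l, on the opposite strand, overlaps 17.9% of the exonic bases of Rpe, so the counts of Rpe are uncertain.

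Tkt, the transketolase, and Taldo1, the transaldolase, move carbon units between sugar phosphates and link the pathway back to glycolysis. Tkt (ENSMUSG00000021957, chromosome 14, 30548359 to 30574720, plus strand) measured 99.9, 167 and 193 CPM in controls against 109, 119 and 122 CPM in treated tumors. Taldo1 (ENSMUSG00000025503, chromosome 7, 141392199 to 141402968, plus strand) measured 88.8, 122 and 155 CPM in controls against 101, 88.3 and 118 CPM in treated tumors. For both genes controls 6 and 7 were above the treated tumors and control 5 was lowest or nearly lowest. The log2 fold change was -0.40 for Tkt (SE 0.30, 95% interval -1.12 to 0.33) and -0.25 for Taldo1 (SE 0.28, 95% interval -0.93 to 0.43), and both signs turned positive with scaling by library totals (0.25 and 0.38), where the median of all genes was 0.51. The sign of Rpe also turned, to 0.25.

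**Figure D3:**
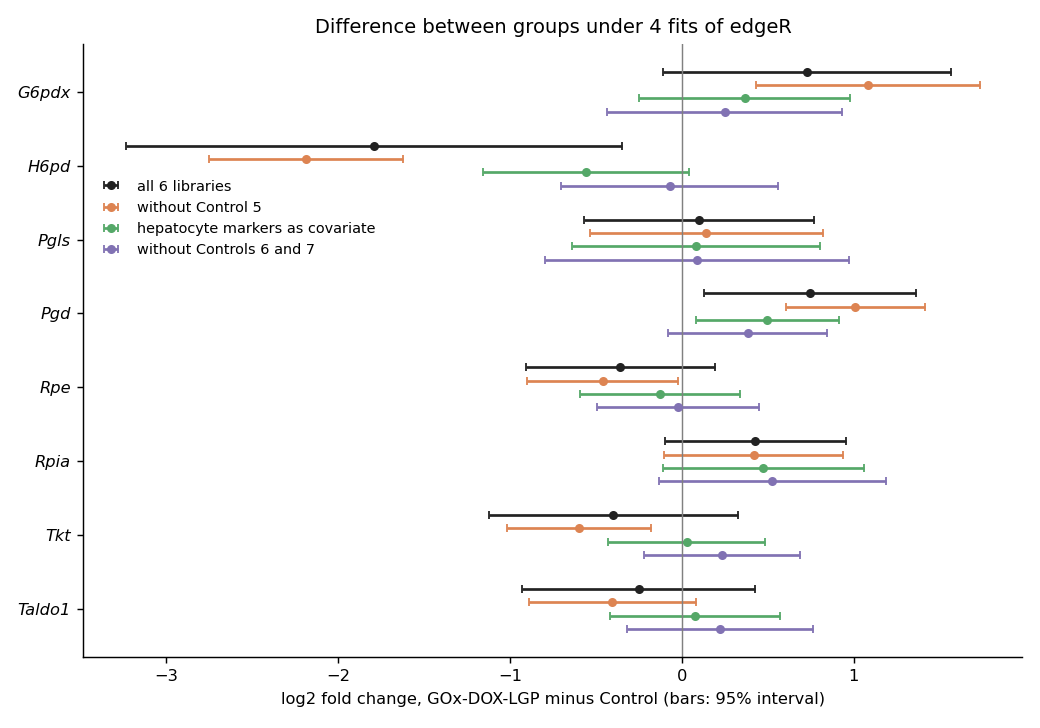
Log2 fold change (GOx-DOX-LGP minus control) of each enzyme with its 95% interval from 4 edgeR fits: all 6 libraries, without control 5, with the hepatocyte marker mean as a covariate, and without controls 6 and 7. The point for H6pd moves from -2.19 without control 5 to -0.07 without controls 6 and 7, whereas those of Rpia stay between 0.42 and 0.52.

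The calls depended on which controls entered the fit and on the test used. Without control 5, 4 of 8 enzymes passed an adjusted p of 0.05 by edgeR. G6pdx (log2 fold change 1.08, adjusted p = 0.0160) and Pgd (1.01, adjusted p = 0.00312) rose, 2 of 8 enzymes beside 22.2% of genes. H6pd (-2.19, adjusted p = 0.000410) and Tkt (-0.60, adjusted p = 0.0282) fell, 2 of 8 beside 25.5%. In this fit the groups did not overlap for 7 of 8 enzymes, Pgls being the exception, beside 72% of genes. With all 6 libraries, the limma voom fit, which weights libraries by their quality, called the same 4 enzymes in the same directions, 2 of 8 higher beside 29.2% of genes and 2 of 8 lower beside 30.9%. The shares of enzymes called were thus near those of all genes.

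With control 5 as the only control, an alternative chosen after the data were seen in which the lone control is assumed to vary like the treated tumors, 0 of 8 enzymes passed, beside 0% of all genes, and the log2 fold change was -0.07 for H6pd (SE 0.26), 0.25 for G6pdx (SE 0.28), 0.38 for Pgd (SE 0.19) and 0.52 for Rpia (SE 0.27). The values for Tkt and Taldo1 were 0.23 and 0.22. The single control was below or above all treated tumors for 5 of 8 enzymes, beside 54.2% of genes. With the mean log2 CPM of the hepatocyte markers as a covariate, the log2 fold change was -0.56 for H6pd (SE 0.26), 0.36 for G6pdx (SE 0.26), 0.50 for Pgd (SE 0.18), 0.47 for Rpia (SE 0.25) and 0.03 for Tkt (SE 0.20), with 0 of 8 past the threshold, beside 0% of all genes. Over these fits the value of H6pd ranged most widely of the 8 enzymes, from -2.19 to -0.07.

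Ratios between enzymes within a library do not depend on how libraries are scaled. Of 8 ratios computed, 4 did not overlap between the groups, each with an adjusted p of 0.2 over the 8 (two-sided exact permutation test, Benjamini-Hochberg). All 4 have Pgd or Rpia as numerator, the enzymes whose own levels already did not overlap, so they are not separate results. The share for ratios of other genes was not computed. The ratio of Pgd to Tkt, in CPM per kb of merged exons, was 1.25, 0.500 and 0.417 in controls 5, 6 and 7 against 1.40, 1.37 and 1.41 in treated tumors. The treated tumors were close together and above all controls (two-sided exact permutation test, p = 0.1). The ratio of Pgd to Taldo1 also separated the groups, with means of 0.257 ± 0.140 (SD, n = 3) in controls and 0.471 ± 0.0611 (SD, n = 3) in treated tumors. The ratio of Rpia to Rpe was 0.145, 0.138 and 0.0970 in controls against 0.193, 0.214 and 0.227 in treated tumors, so that the isomerase was higher relative to the epimerase in every treated tumor (two-sided exact permutation test, p = 0.1). Control 5 was near the treated tumors in the ratio of Pgd to Tkt but near control 6 in that of Rpia to Rpe.

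The ratio of Pgd to H6pd was 0.845, 0.139 and 0.115 in controls 5, 6 and 7 against 1.02, 1.00206 and 1.57 in treated tumors, also without overlap, with control 5 nearest to the treated tumors. The ratio of G6pdx to Pgd averaged 0.612 ± 0.119 (SD, n = 3) in controls and 0.615 ± 0.139 (SD, n = 3) in treated tumors, which differed by less than the SD. The ratio of Tkt to Taldo1, whose groups overlapped, averaged 0.368 ± 0.0354 (SD, n = 3) and 0.340 ± 0.0496 (SD, n = 3). The ratio of cytosolic G6pdx to ER H6pd was 0.569, 0.0956 and 0.0547 in controls against 0.561, 0.775 and 0.819 in treated tumors, with control 5 above treated tumor 1. Together the 8 enzymes took 0.0635%, 0.0676% and 0.0585% of raw counts in controls 5, 6 and 7 and 0.0688%, 0.0709% and 0.0739% in treated tumors 1, 2 and 5, with 95% Wilson intervals, which cover counting error only, of 0.0574% to 0.0597% in control 7 and 0.0725% to 0.0752% in treated tumor 5. After TMM scaling the order turned for controls 6 and 7 but not for control 5, with 513, 895 and 1031 CPM in controls against 557 to 597 CPM in treated tumors.

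**Figure D4:**
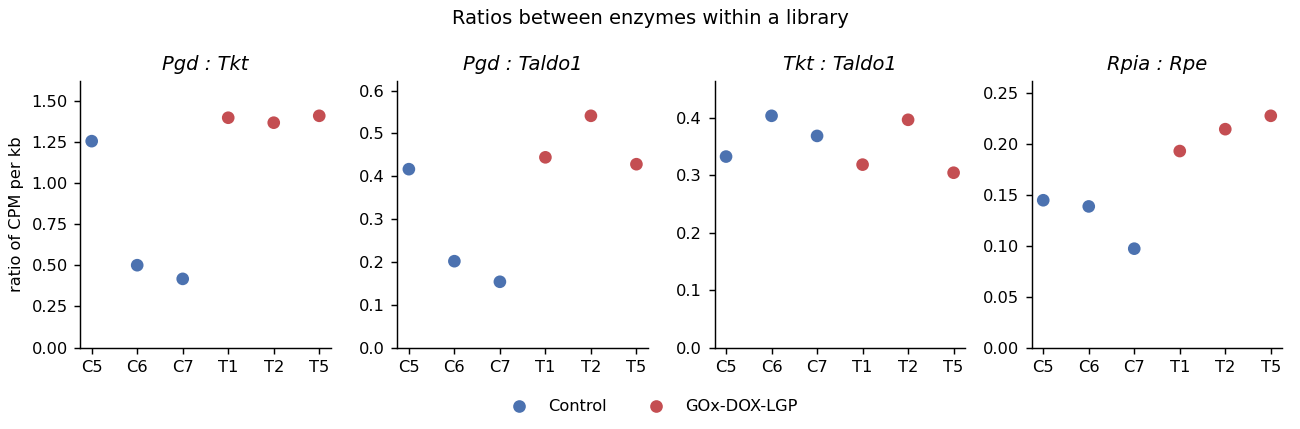
Ratios of CPM per kb between enzyme pairs within each library (linear axes from 0), for controls 5, 6 and 7 (blue) and GOx-DOX-LGP tumors 1, 2 and 5 (red). Pgd to Tkt lies between 1.37 and 1.41 in the treated tumors and between 0.417 and 1.25 in controls, and Rpia to Rpe separates the groups, while Tkt to Taldo1 overlaps.

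Levels of the enzymes were compared with each other per kb of the longest APPRIS principal transcript. In treated tumors, Taldo1 was highest at 83.3 ± 12.2 CPM per kb (SD, n = 3), followed by Pgd at 63.9 ± 3.91, Tkt at 36.1 ± 2.13, Pgls at 26.2 ± 8.74, H6pd at 21.8 ± 4.25, G6pdx at 15.7 ± 3.59, Rpe at 14.9 ± 0.951 and Rpia at 8.00 ± 0.959. Taldo1, Pgd and Tkt were distinct from each other in these 3 tumors, and Rpia was below the rest, but the neighbours from Tkt to Rpe overlapped. In controls the order was Taldo1 (99.2 ± 26.9), H6pd (75.2 ± 45.8), Tkt (47.6 ± 14.9), Pgd (38.1 ± 9.86), Pgls (24.5 ± 0.821), Rpe (19.1 ± 4.39), G6pdx (9.47 ± 3.65) and Rpia (5.95 ± 0.374). Neighbours among the first 4 overlapped, as did Pgls with Rpe and G6pdx with Rpia, whereas Pgd was above Pgls in every control. Rpia ranked 8 in every library and Taldo1 ranked 1 in every library. Per kb of merged exons, a length that counts every annotated exon, H6pd ranked 1 in controls 6 and 7 and Pgls fell to rank 6 or 7.

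The genes whose log2 CPM followed that of G6pdx most closely over the 6 libraries were Mbp (r = 0.998), Emilin2 (r = 0.998), Ms4a6c (r = 0.998), Ctsc, a lysosomal protease (r = 0.996), and Emb (r = 0.996). This is a description over 6 libraries that fall into clusters, and 1661 of 15373 genes had an r above 0.9. Emilin2 measured 84.1, 39.9 and 15.3 CPM in controls against 91.2, 194 and 100.3 CPM in treated tumors, with tumor 2 highest and control 7 lowest as for G6pdx. Among the other enzymes, r with G6pdx was 0.89 for Pgd, 0.56 for Rpia, -0.11 for Pgls, -0.83 for Tkt, -0.86 for H6pd, -0.88 for Taldo1 and -0.97 for Rpe.

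Genes around the pathway were described by lists, 59 genes in all, of which 55 were kept. None passed an adjusted p of 0.05 by edgeR, 7 were higher and 16 lower at an unadjusted p under 0.05, beside 2.87% and 14.6% of all genes, and DESeq2 called 4 higher and 11 lower, beside 0.684% and 9.85%. The median log2 fold change was 0.41 over the 4 oxidative enzymes and -0.30 over the 4 non-oxidative enzymes, beside 0.02 over all genes.

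Of 6 genes listed for the supply of glucose 6-phosphate, 5 were higher in treated tumors (median 0.91). Of these, 2 had an unadjusted p under 0.05, beside 2.87% of all genes. Among the 5 was the gene deposited as Pgm1, which GENCODE M21 names Pgm2. Hk3 measured 11.1, 6.11 and 4.52 CPM in controls against 13.9 to 20.1 CPM in treated tumors without overlap (log2 fold change 1.27, SE 0.39), and Gpi1, which converts glucose 6-phosphate to fructose 6-phosphate for glycolysis, measured 391, 236 and 265 CPM in controls against 514 to 554 CPM in treated tumors, also without overlap. All 11 glycolysis genes downstream had a positive log2 fold change (median 0.87), 3 at an unadjusted p under 0.05, beside 2.87% of all genes, and 7 without overlap, beside 8.87%. The log2 fold change was positive for all 11 without controls 6 and 7 as well, with a median of 0.41. The largest values were those of Pkm (1.61, SE 0.95) and Aldoa (1.498, SE 0.60), and Ldha, the last enzyme of the list, had 0.47 (SE 0.34).

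The list of ribose, sedoheptulose and related enzymes was lower in 6 of 6 genes kept (median -1.09). These included the gene deposited as Pgm2, whose symbol differs between annotations. Shpk, which phosphorylates sedoheptulose, measured 2.19, 33.6 and 65.0 CPM in controls against 1.04 to 1.96 CPM in treated tumors, without overlap (log2 fold change -4.49, SE 1.17). Without controls 6 and 7 the direction turned, with 5 of 6 genes higher (median 0.20) and Shpk lower. Rbks, the ribokinase, had a log2 fold change of -1.88 (SE 0.69). The gene with the deposited symbol Pgm2 (ENSMUSG00000025791) had -0.83 (SE 0.44), but GENCODE M21 names it Pgm1. The gene that GENCODE M21 names Pgm2 (ENSMUSG00000029171) had 0.30 (SE 0.32). It stood in the glucose 6-phosphate list under the deposited symbol Pgm1. The ribose phosphate pyrophosphokinases Prps1 (-0.08, SE 0.19) and Prps2 (-0.15, SE 0.33) lay near 0. Tktl2 and G6pd2, a retrogene of G6pdx, had 0 counts in every library, and Tktl1 and Prps1l1 did not pass the filter.

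Other sources of NADPH were lower in 6 of 9 genes (median -1.46), 4 of them at an unadjusted p under 0.05. For this list and those below, the shares of all genes at that threshold were 14.6% lower and 2.87% higher. Without controls 6 and 7, 5 of 9 were higher (median 0.13). Idh1 measured 48.3, 508 and 827 CPM in controls against 64.8 to 70.4 CPM in treated tumors (log2 fold change -2.76, SE 0.93), and Aldh1l1, of the folate pathway, had a log2 fold change of -5.79 (SE 1.63). For both genes controls 6 and 7 were far above the other libraries. Users of NADPH in redox defence were lower in 7 of 7 genes (median -0.96, 1 at an unadjusted p under 0.05), among them Cbr1 (log2 fold change -2.13, SE 0.72), Txnrd2 (-1.57, SE 0.65) and Txnrd1 (-0.54, SE 0.25). Cbr1 measured 12.1 CPM in control 5, 58.6 and 105.4 CPM in controls 6 and 7, and 12.4 to 14.2 CPM in treated tumors, and without controls 6 and 7 this list had 5 of 7 genes higher (median 0.06). Users in synthesis were lower in 5 of 6 genes (median -1.18, 4 at an unadjusted p under 0.05), among them Fasn, fatty acid synthase (-2.45, SE 0.83). Fasn measured 67.1 CPM in control 5, 320 and 785 CPM in controls 6 and 7, and 66.9 to 78.6 CPM in treated tumors, and without controls 6 and 7 this list had 4 of 6 genes higher (median 0.10). The phagocyte oxidase, which turns NADPH into superoxide, was higher in 6 of 6 genes (median 0.96, 2 at an unadjusted p under 0.05), among them Ncf1 (1.24, SE 0.54), Ncf4 (1.12, SE 0.48) and the catalytic subunit Cybb (0.58, SE 0.39). Without controls 6 and 7 all 6 were still higher (median 0.41). The macrophage markers were higher in 8 of 8 genes (median 0.96) and the neutrophil markers in 5 of 5 kept (median 1.62), and their part in this list was not tested. Thus, with all 6 libraries, 2 of the 3 lists of NADPH users had a negative median and 1 a positive median. The medians of all 3 were positive without controls 6 and 7. No list contained a gene past an adjusted p of 0.05 by edgeR with all 6 libraries.

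**Figure D5:**
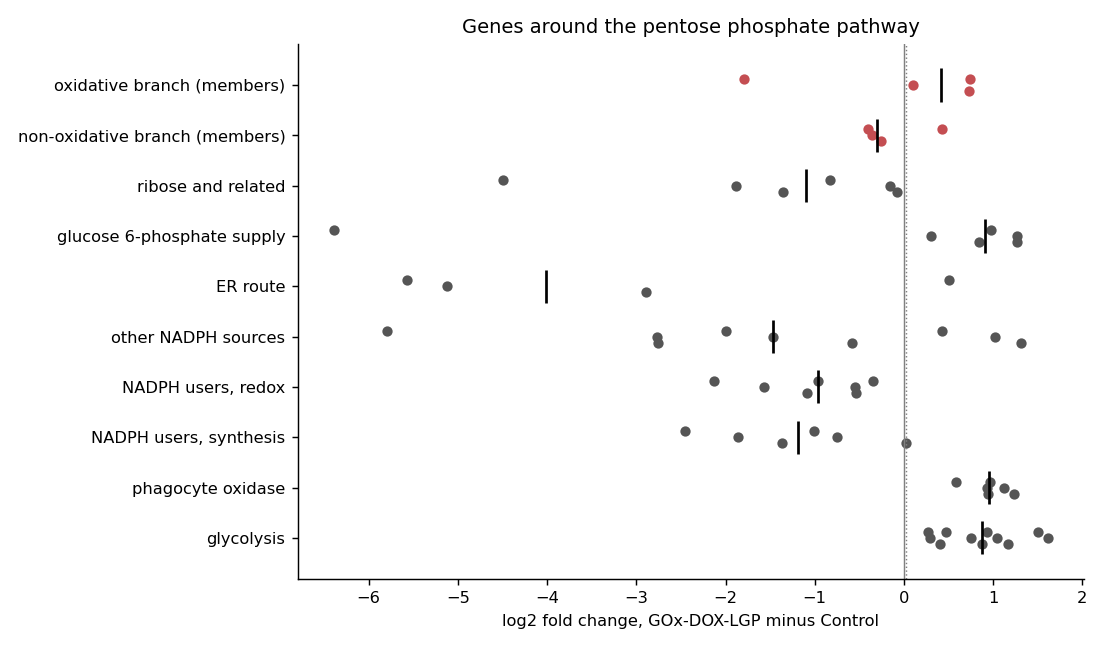
Log2 fold change (GOx-DOX-LGP minus control) of each gene kept, by list, with the enzymes of the pathway in red, other genes in grey and a black bar at each list's median; the dotted line is the median of all genes, 0.02. The ER route has the lowest median (-4.01), and the phagocyte oxidase and glycolysis lists lie wholly above 0.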

How the data were processed

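Poly(A) RNA libraries (KAPA mRNA HyperPrep) of 6 tumors were compared, 3 per group by title. The authors deposited raw counts per gene. The paper's methods name TopHat and HTSeq, whereas the submitters' processing notes list Trimmomatic 0.38, HISAT2 2.1.0 and featureCounts 2.0.0; genome build, annotation and strand setting are not given in the sources used here. The authors also deposited a signal table of counts divided by size factors, from which 100% of 208110 values gave whole reads (tolerance 0.01), equal to the raw counts; the same test on them called 0 genes.

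Raw counts were analysed in R 4.3.3 with edgeR 4.0.16 (filterByExpr, TMM, quasi-likelihood test, two-sided, Benjamini-Hochberg over 15374 genes, threshold 0.05). DESeq2 1.42.0 and limma 3.58.1 (voom) were alternatives, as were other scalings and filters, a hepatocyte marker covariate and leaving out libraries. Signs of the lists without controls 6 and 7 were added after the data were seen. Standard errors were derived from the F statistics. Code was tested on simulated data. Totals of 15529940 to 18401178 counts set the precision of counting alone. Wilson intervals cover counting error only, whereas intervals of log2 fold changes include the spread between tumors. Positions and lengths came from GENCODE M21 (GRCm38), which held 55450 of 55536 identifiers. Start-site windows came from RefSeq.

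All 8 enzymes were named, with the 2 largest changes and the highest level of each list as examples, the 5 genes most like G6pdx, and Alb, Ttr and Apoa1. Some genes within this rule are not reported here. Slc37a4, G6pc3, Prps1, Prps2 and the genes that were not kept were added after their values were seen. Members and lists were chosen with earlier results of these data known. Whether tumors came from separate mice is not stated, so p-values measure the spread between these samples. Other cell type lists gave, as median log2 fold changes, 0.96 (macrophage), 1.36 (T cell), 1.62 (neutrophil), -0.69 (endothelial), 0.34 (fibroblast) and -2.90 (erythroid).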

Additional observations from a re-analysis of the deposited data

How the results depend on the processing

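Adjusted over all genes, DESeq2 called 1 of 8 enzymes (H6pd) and 1739 genes in all, DESeq2 on the genes kept by the filter 1 and 1516, and limma voom 4 and 9254, against 0 and 0 with edgeR. Leaving out each library in turn gave 0 to 4 enzymes and 0 to 7745 genes, the highest values without control 5. The groups did not overlap for 2 to 7 enzymes, and the cause was not tested. The highest, 7 of 8 without control 5, stands beside 72% of genes. The share of genes was not counted when other single libraries were left out. Without controls 6 and 7, 5 of 8 enzymes did not overlap, beside 54.2% of genes. The sign reversed with library totals for Rpe (0.25), Tkt (0.25) and Taldo1 (0.38), with housekeeping genes for Pgls (-0.24), with the hepatocyte covariate for Tkt (0.0269) and Taldo1 (0.0755), without treated tumor 5 for Pgls (-0.16, with 0.28 the highest value when leaving out a library), and without controls 6 and 7 for Tkt (0.23) and Taldo1 (0.22). The median log2 fold change of all genes was 0.51 with library totals, 0.19 with the upper quartile and -0.29 with housekeeping genes. Over the 18 alternatives G6pdx lay between 0.25 and 1.11, H6pd between -2.22 and -0.07, Pgd between 0.38 and 1.17 and Rpia between 0.08 and 0.97, without a change of sign. With 149 counts of G6pdx and 100 of Rpia in control 7, depth limits these genes most. No paired analysis was possible because the groups share only the replicate number 5.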
